A study of Mus musculus with 18 samples.

Results

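The experiment described here was a knockdown of Tcf3 in a partially reprogrammed mouse cell clone, and it comprised 3 of the 18 Affymetrix arrays of the series. The arrays were chosen by their titles: 1 had received a control siRNA and 2 had each received a different siRNA against Tcf3, called A and B. All 3 carried the Tcf3 wt genotype and the reprogramming factor set labelled OCK, and RNA was taken on day 2, 48 hours after transfection. The other arrays used here for context were 1 OSK iPSC clone of Tcf3 wt genotype, 2 OSK and 2 OCK iPSC clones of Tcf3 ko genotype, and 10 OCK reprogramming cultures, wt and ko on each of days 11, 15, 19, 22 and 26. The labels do not spell out OCK or OSK. The siRNA arrays came from 1 clone with 1 control array, and no label says that A and B were separate experiments, so the p-values below measure only the spread between arrays. Of 17127 autosomal genes with a named probe set, 12188 were above the lower limit of the deposited values on at least 1 of the 3 arrays and were tested. The remaining 4939 were at that limit, a log2 signal of 5.64, on all 3.

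Tcf3, whose gene symbol is Tcf7l1, is a member of the Tcf/Lef family, the DNA-binding partners of beta-catenin in Wnt signalling. Without beta-catenin it acts mostly as a repressor, and in embryonic stem cells it occupies and dampens genes of the pluripotency network such as Nanog. Partially reprogrammed clones are stable lines that have left the fibroblast state without turning on the full set of pluripotency genes.

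Pluripotency markers of the clone stood differently against the OSK wt clone. Pou5f1 (Oct4), a core pluripotency factor, was at a log2 signal of 12.76 with control siRNA, 12.83 with A and 12.78 with B. The OSK wt clone was lower for Pou5f1, at 11.93. For genes of the reprogramming factors, RNA of the cell's own gene and of an introduced copy was not told apart here. Dppa5a was at 10.58, 10.84 and 10.99 in control, A and B, against 14.41 in the OSK wt clone. Dppa4 was at 6.07, 5.97 and 6.17, against 11.30. Sox2 was at 8.35, 8.60 and 8.37, against 12.26 in the OSK wt clone. Zfp42, a marker of full pluripotency, was at the limit on all 3 arrays and at 12.28 in the OSK wt clone. Markers of fibroblasts and feeder cells were measured too. Their summed signal, as a log2 value, was 13.68 in the control and 13.28 and 13.38 with the siRNAs, and 6 of 7 were lower on both siRNA arrays. Each of the 7 was higher in the control than in the OSK wt clone, such as Col1a2 at 12.42 against 10.23 and Dcn at 9.67 against 6.85. Of other cell types, Ptprc and C1qa of macrophages, Cdh5 of endothelium and Fabp4 and Adipoq of adipocytes were at the limit on all 3 arrays. Other markers of these types gave signal: Tek of endothelium was at 10.25, 9.94 and 9.80 in control, A and B, and Pecam1 at 6.98, 7.41 and 7.26. Lyz2 of macrophages was at 7.05, 6.59 and 6.18, and Csf1r at 6.05, 6.44 and 6.01. Fewer fibroblast-type cells and less RNA of these genes per cell cannot be told apart in bulk RNA, and the part of either in the results was not tested.

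The targeted gene was lower with both siRNAs. Tcf7l1 had a log2 signal of 9.93 with control siRNA, 8.80 with A and 8.77 with B, which left 45.2% of the control signal. The difference was -1.15 ± 0.11 (SE, 2 arrays against 1; limma, adjusted p = 0.0495). The second probe set of Tcf7l1, which was not used in the test, went from 9.86 to 7.79 and 7.56, or 22.04% of control, so the size of the knockdown depended on the probe set. Both siRNA arrays lay within 0.03 of each other on the tested probe set. Across the iPSC clones the tested probe set was at 10.68 in OSK wt and at 9.49 and 9.37 in OSK ko, so its signal in the siRNA arrays was below that of the ko clones. The ko clones still gave signal on it, and no label says where the probes lie relative to the knockout allele.

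Of the other Tcf/Lef factors, Tcf7l2 was at 8.09, 7.94 and 7.69 in control, A and B, a difference of -0.28 ± 0.30 (limma, adjusted p = 0.761). Lef1 was at the lower limit on all 3 arrays and was not tested. Tcf7 was not analysed here.

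In the fit of 8 arrays used here, Tcf3 knockdown was followed by falls and by no rise that passed the test. Of the 12188 autosomal genes, 13 (0.107%) fell and 0 (0.0%) rose at a limma adjusted p under 0.05. Some other fits called rises, which are counted in the section on processing. At an unadjusted p under 0.05 the counts in the fit used here were 1019 lower (8.36%) and 525 higher (4.31%). This excess of falls depended on scaling. The same counts were 835 lower and 862 higher with quantile normalization, and 765 lower and 960 higher with median centring. The differences of the 13 called genes ran from -2.61 to -1.15 on the log2 scale and their adjusted p from 0.0421 to 0.0495, just inside the threshold. Both siRNA arrays were below the control for each of the 13. The calls rested on few arrays: without the array of siRNA A only Hbb-y, which was not among the 13, was called, and without that of siRNA B 0 genes were. They rested on the clones that lent their spread as well, with 0 calls without the OSK clones and 477 without the OCK ko clones, both fits chosen after seeing the data.

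**Figure D1:**
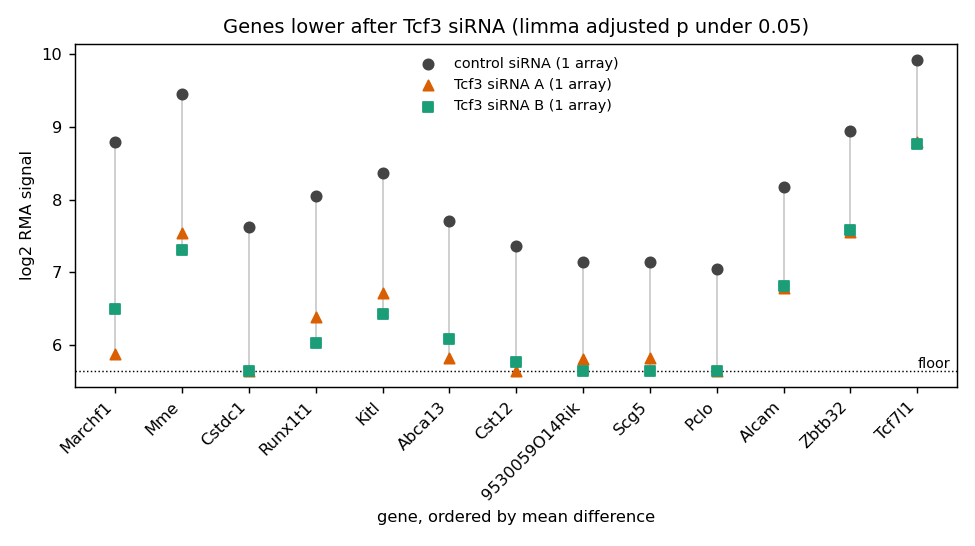
Log2 RMA signal (vertical axis) of the 13 autosomal genes called lower (horizontal axis, ordered by mean difference), with 1 point per array for control siRNA, Tcf3 siRNA A and Tcf3 siRNA B. The dotted line is the lower limit of the deposited values, 5.64, and both siRNA points lie below the control point for every gene.

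Of the genes that fell, Mme, Kitl, Alcam and Marchf1 encode membrane proteins. Mme, the cell-surface peptidase neprilysin, was at 9.46 in the control, 7.54 with A and 7.31 with B, and fell by 2.04 ± 0.16 (SE; limma, adjusted p = 0.0421). The spread between the siRNAs was a small part of the distance to the control. Kitl, the ligand of the receptor Kit, was at 8.37, 6.72 and 6.42, and its 2 other measured probe sets were lower by 1.05 and 0.71. Alcam, an adhesion molecule of the immunoglobulin superfamily, was at 8.18, 6.79 and 6.81. Its 3 other measured probe sets were all lower with both siRNAs, between 0.93 and 1.19 on the log2 scale. Marchf1, a membrane-bound ubiquitin ligase that removes MHC class II from the surface, showed the largest fall of the 13: 8.80 in the control, 5.88 with A and 6.49 with B, or -2.61 ± 0.24 (SE; limma, adjusted p = 0.0447). A second probe set of Marchf1 was at 7.89 in the control and at the limit with both siRNAs.

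Transcriptional regulators were among them. Runx1t1, a corepressor also called ETO, was at 8.05, 6.38 and 6.03 in control, A and B, and another probe set of it gave 7.75, 5.76 and 6.06. Zbtb32, a zinc finger repressor first known from T cells, was at 8.95, 7.56 and 7.59, a fall of 1.38 ± 0.098 (SE; limma, adjusted p = 0.0421). The siRNA arrays differed by 0.03 for Zbtb32, the closest agreement beside Alcam and Tcf7l1 among these genes that were above the limit.

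The other 6 genes were at or near the lower limit after knockdown. Cstdc1 and Cst12, which encode cystatin-family proteins and are neighbours on chromosome 2, were at 7.63 and 7.37 in the control. Cstdc1 was at the limit with both siRNAs, at least 3.96-fold lower, and Cst12 was at the limit with A and at 5.77 with B. The pair may share probe signal, since they are related genes, and this was not tested. Pclo, a scaffold of the presynaptic active zone, went from 7.05 to the limit with both siRNAs, at least 2.65-fold lower. Scg5, a chaperone of a neuroendocrine convertase, was at 7.15 in the control, 5.82 with A and the limit with B. Abca13, an ABC transporter, was at 7.70, 5.83 and 6.08, and 9530059O14Rik was at 7.15, 5.81 and the limit. Of the 13 called genes, 9 had at least 1 array of the fit at the limit, and the standard error of 7 was the smallest the fit allowed such genes, 0.138.

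A wider description uses size alone. With both siRNAs, 61 genes (0.5%) were at least 2-fold lower than the control and 1 gene (0.0082%) at least 2-fold higher. The 61 were 61.6% of the 99 genes that were 2-fold lower with A and 48.0% of the 127 that were with B; the siRNAs share their control array, so this overlap is not read as agreement. All 13 called genes were among the 61. The median difference of the 61 was -1.36, a low value that the 2-fold rule required. Over all genes tested the median was -0.0031. Of the 61, 38 had a limma adjusted p under 0.1 and 23 had one of 0.1 or more. Just inside the threshold lay Fosl2, Wls and Lrrc31, whose smaller difference was -1.006, -1.003 and -1.002, and just outside it Gbp2b, Ryr2 and Aldh6a1 at -0.99, -0.99 and -0.98. With each gene taken as the mean of its probe sets, the 2-fold genes were 40 in place of 62.

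**Figure D2:**
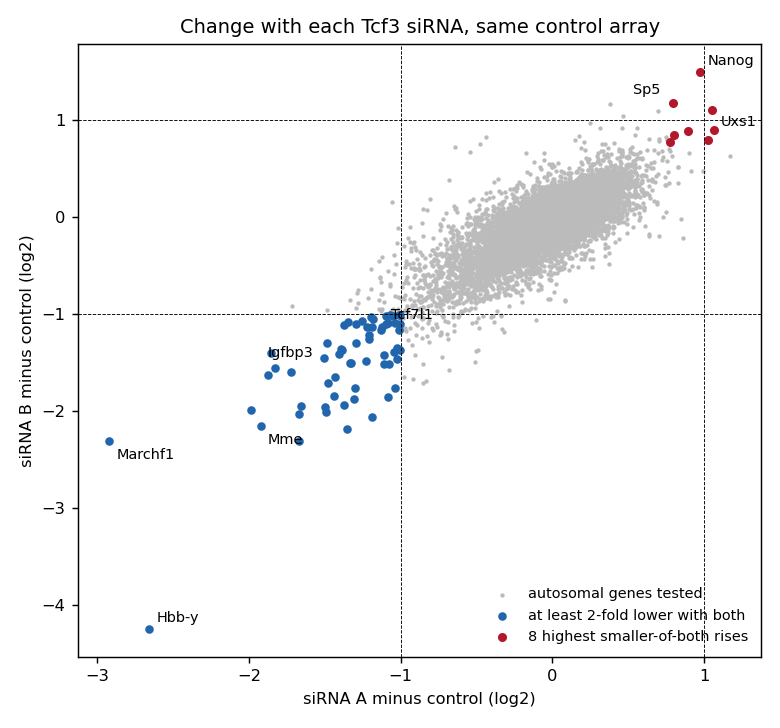
Log2 difference from the control array with Tcf3 siRNA A (horizontal axis) and siRNA B (vertical axis) for the 12188 autosomal genes tested, with the 61 genes at least 2-fold lower with both in blue and the 8 genes with the largest shared increases in red. Both axes subtract the same control array; 61 genes lie in the lower left corner beyond both dashed lines and 1 lies in the upper right.

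The largest difference of all was that of Hbb-y, an embryonic beta-like globin. Hbb-y was at 11.96 in the control, 9.30 with A and 7.71 with B, and its difference of -3.45 ± 0.57 (SE) did not pass (limma, adjusted p = 0.110). Both siRNA arrays were low, but they differed from each other by 1.59, more than for any other of the 61. It was at the limit in all 5 iPSC clones and between 6.09 and 8.13 in the cultures.

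Among the 61 were genes of secreted factors and of the matrix, named here after their values were seen. Igfbp3, which binds insulin-like growth factors, was at 10.28 in the control, 8.45 with A and 8.73 with B (-1.69 ± 0.19, limma adjusted p = 0.0703). Penk, the precursor of enkephalins, was at 11.91, 10.42 and 9.91. Cemip, which takes part in breakdown of hyaluronan, was at 8.81, 7.32 and 6.86. For these 3 genes the siRNA arrays lay closer to each other than to the control. Igfbp3, Penk and Cemip did not pass the test, nor did Timp2, an inhibitor of matrix metalloproteinases, at 10.95, 9.95 and 9.80. Wls, the carrier that Wnt proteins need for secretion, was at 10.08, 9.01 and 9.08, also without passing (adjusted p = 0.142).

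Genes of epithelia were among them as well. Krt8, a keratin of simple epithelia, was at 10.28, 9.17 and 8.87 in control, A and B. Krt6a and Krt6b, related keratins that are neighbours on chromosome 15, were at 8.26, 7.15 and 6.75 and at 8.998, 7.56 and 7.16. The other measured probe set of Krt6a was at 7.45, 7.36 and 7.20, a difference of -0.17 against the -1.31 of the one used. Trp63 (p63), a regulator of stratified epithelium, was at 7.39, 6.29 and 6.37, and Elf5, a factor of trophoblast and glandular epithelium, went from 6.73 to the limit with both siRNAs. None of these 5 genes passed the test; their limma adjusted p ran from 0.0854 for Elf5 and Trp63 to 0.480 for Krt6b. Klk1b16 and Klk1b27, 2 kallikreins that are neighbours on chromosome 7, were lower too, and related genes such as the keratin and kallikrein pairs may share probe signal, which was not tested.

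Enzymes and stress-responsive genes were also present. Hmox1, heme oxygenase, was at 9.26, 8.03 and 7.78 (limma adjusted p = 0.0706), and Mt2, a metallothionein, at 10.53, 9.33 and 9.503 (limma adjusted p = 0.0854). Aldh1a1, which makes retinoic acid, was at 7.83, 6.76 and 6.32. The control was the high array in each case, as the way these genes were picked required, and none of the 3 passed.

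The 61 genes lay on 15 chromosomes. After knockdown 8 of them were at the limit with both siRNAs, against 169 of all 12188 genes tested. The 61 were picked for low siRNA arrays, so this share is not read as a result.

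Increases were smaller in size. The 8 genes with the largest increase shared by both siRNAs are given here by their values, since 0 of 8 passed the test. For 2 of them, Sp5 and Nrp2, the promoter window held the letters ATCAAAG or, on the other strand, CTTTGAT, a form of the Tcf/Lef recognition motif. The windows are the 250 bases before the gene start in RefSeq (GRCm38.p6), 5' to 3' on the gene's strand, with the motif in capitals, at chr2:70474673-70474922 (plus strand) for Sp5 and chr1:62703067-62703316 (plus strand) for Nrp2. They are shown because these were the 2 windows with the letters among the 6 of these genes that could be matched.
Sp5: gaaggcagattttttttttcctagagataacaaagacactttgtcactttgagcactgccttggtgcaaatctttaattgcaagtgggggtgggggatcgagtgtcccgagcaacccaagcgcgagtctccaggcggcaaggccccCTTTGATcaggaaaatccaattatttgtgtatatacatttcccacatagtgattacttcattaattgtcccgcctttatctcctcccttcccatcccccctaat
Nrp2: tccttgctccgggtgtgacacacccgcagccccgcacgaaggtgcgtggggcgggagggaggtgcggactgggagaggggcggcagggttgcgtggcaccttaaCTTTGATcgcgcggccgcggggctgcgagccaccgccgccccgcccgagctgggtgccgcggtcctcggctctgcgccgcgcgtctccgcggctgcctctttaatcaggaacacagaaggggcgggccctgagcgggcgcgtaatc
Counted from the gene start, the motif began at position -104 in Sp5 and at -146 in Nrp2. Of the 9817 tested genes with a RefSeq window, 280 (2.85%) held it in at least 1 window. Of the genes 2-fold lower with both siRNAs, 47 had windows and 1 of them (2.13%) held it, and of the 12 genes that fell and had windows, 0 did. A match describes letters in a window and is no evidence that Tcf3 was bound there.

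Sp5, a zinc finger repressor induced by Wnt signals, was at 6.56 in the control, 7.36 with A and 7.74 with B, a difference of 0.99 ± 0.21 (SE; limma, adjusted p = 0.161). It was at the lower limit in all 10 cultures. Nrp2, a co-receptor of semaphorins, was at 7.97, 8.77 and 8.82, but its other probe sets moved less, with differences between 0.12 and 0.42. Nanog was at 5.78 in the control, close to the lower limit, and at 6.76 and 7.29 with the siRNAs, a difference of 1.24 ± 0.21 (SE; limma, adjusted p = 0.114). Both siRNA arrays were above the control, and both were far below the 12.55 of the OSK wt clone. In the wt cultures Nanog ran from the limit to 9.23.

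Uxs1, which makes the UDP-xylose that starts proteoglycan side chains, was the gene at least 2-fold higher with both siRNAs. It was at 9.02 in the control, 10.08 with A and 10.13 with B, a difference of 1.08 ± 0.11 (SE; limma, adjusted p = 0.0537). A second probe set of Uxs1 gave 7.996, 9.18 and 8.96. Evx1, a homeobox gene of the primitive streak, was at the limit in the control and at 6.71 and 6.54 with the siRNAs (limma adjusted p = 0.0865), and it was at the limit on all 15 other arrays. Slc16a7, a monocarboxylate transporter, was at 6.07, 6.96 and 6.96 and likewise at the limit on the other 15. Cmtm6, a membrane protein that stabilises PD-L1, was at 8.33, 9.35 and 9.12, and Dnajc12, a co-chaperone of the Hsp40 family, at 6.38, 7.16 and 7.16. The siRNA arrays lay above the control for all 8 genes, as the way they were picked required.

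**Figure D3:**
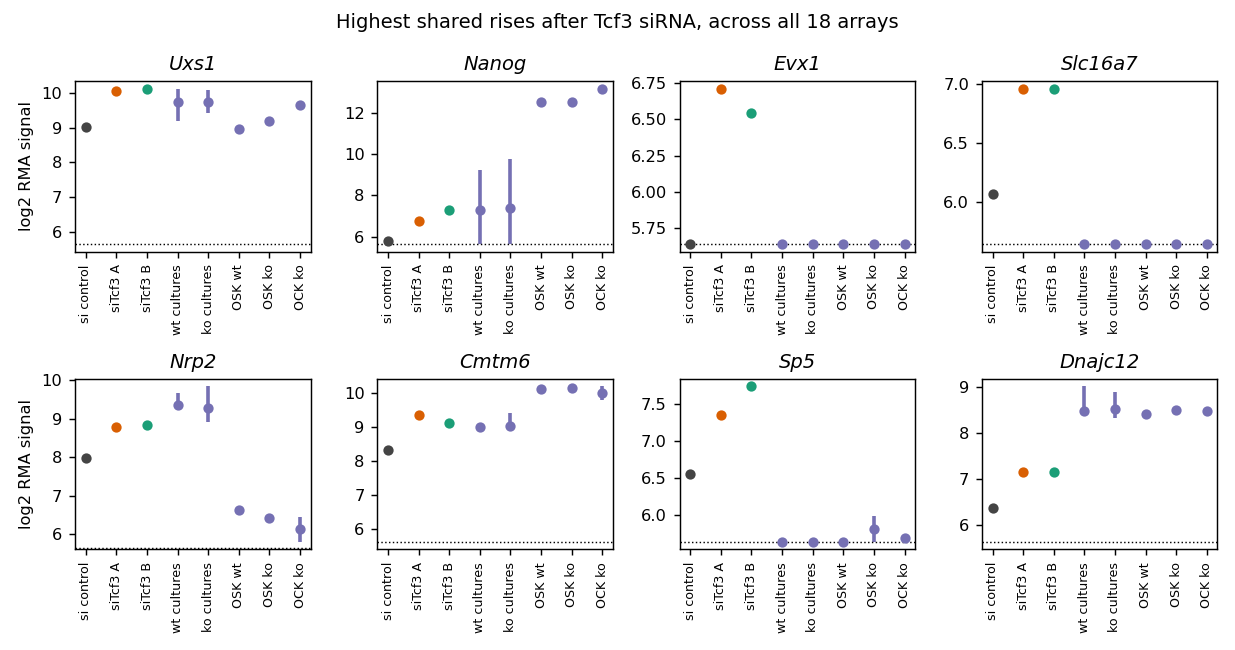
Log2 RMA signal (vertical axes, each with its own range) of the 8 genes with the largest shared increases. Shown are the control, siRNA A and siRNA B arrays and the other groups. The point is the median for the cultures and the mean for the ko clones, and the bar runs from the lowest to the highest array. The dotted line is the lower limit. For each gene both siRNA points lie above the control, as the way the genes were picked required. Evx1 and Slc16a7 are at the limit in every other group.

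Gene lists for pathways and cell types were then read by how many members were lower or higher than the control on both siRNA arrays. Over all genes tested, 39.9% were lower on both and 36.5% higher on both. Apart from Tcf7l1, 0 members of any of the 29 lists passed the test. Direction moved with signal level over all genes: of those at a control log2 signal of 7.5 to 8.5, 46.6% were lower on both and 30.7% higher, and of those between the lower limit and 6.5, 29.0% were lower and 46.2% higher.

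The first list held genes described as repressed by Tcf3 in embryonic stem cells. Of 11 tested, 5 were higher on both arrays and 3 lower on both, with a median difference of 0.068. The split depended on scaling, with 7 higher and 1 lower under median centring and 5 and 1 under quantile normalization. Nanog had the largest value, and Tbx3, a transcription factor of the naive network, was at the limit in the control and at 6.09 and 6.33 with the siRNAs. Klf4, one of the reprogramming factors, differed by 0.02, Klf2 by -0.19 and Esrrb by 0.15. Of the wider pluripotency network, 9 of 27 were higher and 8 lower on both arrays, with a median of 0.019. Under median centring these counts were 13 and 7, and under quantile normalization 12 and 6. Dppa2 was at 6.26, 6.43 and 7.10, whereas Fbxo15, an Oct4 target, was at 9.73, 8.99 and 9.11. Neither passed (limma adjusted p = 0.514 and 0.310).

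Genes of the Wnt pathway were read in the same way. Of 16 feedback and target genes, 6 were higher and 5 lower on both arrays, with a median of 0.05. Axin2, the standard feedback target, differed by 0.16. Apcdd1, a Wnt inhibitor, was at 9.65, 8.71 and 8.81 (limma adjusted p = 0.198) and Lgr5, a stem cell receptor for R-spondins, at the limit, 5.94 and 5.99. Of 20 beta-catenin pathway components, 12 were lower and 3 higher on both arrays, with a median of -0.069. Bcl9, a beta-catenin coactivator, was at 9.11, 8.47 and 8.69, but its other probe set was higher on both siRNA arrays, at 7.25, 7.37 and 7.32. Under median centring the components were split 9 lower and 7 higher, and the feedback and target genes 4 lower and 11 higher.

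The cell cycle list lay on the high side. Of 20 genes, 18 were higher on both siRNA arrays and 0 lower, with a median difference of 0.27. Aurka, the mitotic kinase Aurora A, was at 10.01 in the control and 10.52 and 10.56 with the siRNAs, and Ccna2 (cyclin A2) was at 10.82, 11.29 and 11.28. Mcm5, a subunit of the replicative helicase, was at 10.39, 10.76 and 10.80. Each siRNA array was above the control for these 3 genes, none of which passed (limma adjusted p = 0.197, 0.174 and 0.228), and 7 of the 20 had an unadjusted p under 0.05.

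The p53 and Ink4a/Arf list, whose genes restrain the cycle or promote cell death, lay on the low side. All 14 tested genes of it were lower on both siRNA arrays, with a median of -0.31. Cdkn2a, the locus of p16 and Arf, was at 9.55, 8.71 and 8.87 (limma adjusted p = 0.174). Pmaip1 (Noxa), a p53 target that promotes apoptosis, was at 8.87, 8.18 and 8.19, and Cdkn1a (p21) differed by -0.22. Perp is counted in this list and in the keratinocyte list. Under median centring 13 of the 14 were lower on both arrays.

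Mesenchymal, muscle and primitive endoderm genes were lower than the control for most members, none of which passed. Of 27 mesenchymal genes, 24 were lower and 1 higher on both arrays, with a median of -0.41. S100a4, a fibroblast calcium-binding protein, was at 11.22, 10.27 and 10.26. Dcn, the matrix proteoglycan decorin, was at 9.67, 9.12 and 8.83, and Thy1 was the 1 member higher on both, at 9.81, 10.13 and 9.91. Of 9 muscle and contractile genes, 7 were lower and 2 higher, with Acta1 at 7.76, 6.89 and 6.73. Of 12 primitive endoderm genes, 10 were lower and 1 higher, with a median of -0.48. The 3 markers Gata6, Sox17 and Gata4 had a summed log2 signal of 10.70 in the control and 10.35 and 10.22 with the siRNAs, nearly all of it from Gata6. Gata4 was at the limit in the control and higher on both siRNA arrays, at 6.03 and 5.92. Gata6, which drives that lineage, was at 10.60, 10.20 and 10.08, against 6.63 in the OSK wt clone. The lists share members, Sparc and Pdgfra among them.

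Epithelial genes were lower on both arrays for 18 of 23 and higher for 3, with a median of -0.20. Under median centring these counts were 14 and 5. At an unadjusted limma p under 0.05, 3 epithelial genes were lower and 2 higher, and the highest difference was 0.67. Keratinocyte genes were lower on both arrays for 8 of 11 and higher for 2, with a median of -0.13. Krt18, the partner of Krt8, was at 8.68, 7.99 and 7.82, and Dsp (desmoplakin) at 10.55, 9.77 and 9.89. The 3 keratinocyte markers Krt5, Krt14 and Trp63 summed to a log2 signal of 8.14 in the control and 7.66 and 7.68 with the siRNAs, a sum carried by Trp63. Krt5 was higher on both siRNA arrays, at 5.90, 6.21 and 6.16, and Krt14 was at 5.77 in the control and the limit with both siRNAs. Of 9 trophoblast genes, 4 were lower and 3 higher. Mesoderm and primitive streak genes went the other way, with 9 of 10 higher on both arrays, 0 lower and a median of 0.28. Mesp1, an early mesoderm factor, was at 7.06, 7.82 and 7.64 (limma adjusted p = 0.117). Many of that list were close to the lower limit, where over all genes more were higher than lower. In 2 signalling lists, lower members outnumbered higher ones: 14 of 21 lower and 3 higher for Nodal and TGF-beta, including Inhba at 10.12, 9.08 and 9.53, and 9 of 15 lower and 4 higher for FGF/ERK feedback, including Egr1 at 9.84, 9.06 and 9.34.

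**Figure D4:**
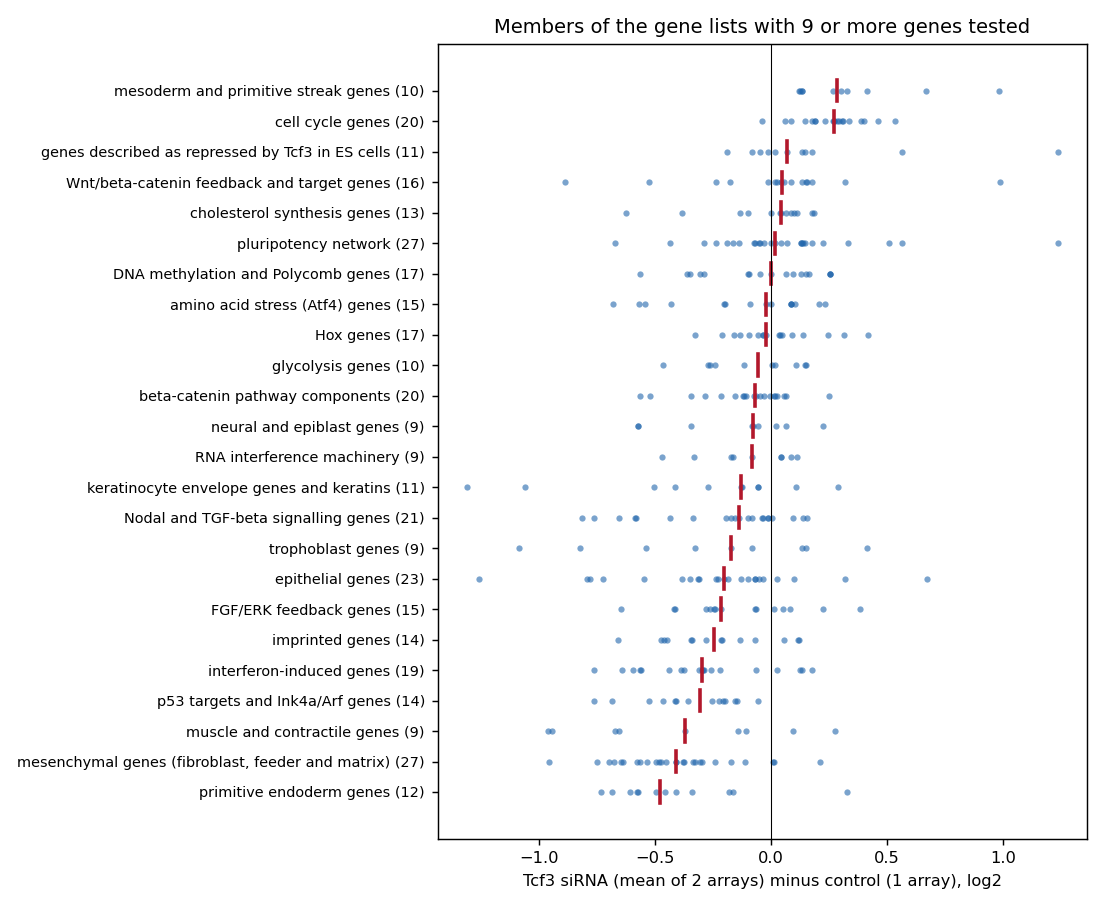
Log2 difference between the mean of the 2 Tcf3 siRNA arrays and the control array (horizontal axis) for the tested members of each gene list with 9 or more genes tested (vertical axis, number tested in parentheses), with 1 dot per gene and a red bar at the list median. Medians run from -0.48 for primitive endoderm genes to 0.28 for mesoderm and primitive streak genes.

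The knockdown was set beside the loss of Tcf3 in the OSK clones, which share no array with it. In that comparison 75 of 12213 genes (0.614%) passed, 37 of them lower (0.303%). Of the 61 genes, 35 were above the limit in the OSK clones and 26 were at it on all 3 OSK arrays. Among the 35, 23 (65.7%) were lower than OSK wt in both ko clones, against 38.5% of all genes, with a median difference of -0.32 against 0.012. The 23 include the targeted gene, Tcf7l1. Both ko clones were compared with the same 1 OSK wt array, so a shared direction in them is not read as agreement. Of the 35 genes Tcf7l1 and Mt2 passed as lower in the OSK ko clones. Mt2 was at 12.91 in wt and 11.65 and 11.52 in ko (limma adjusted p = 0.0251). Ckmt1, Igfbp3 and Krt8 were also 2-fold lower in both ko clones than in wt without passing. With Tcf7l1 and Mt2 they made 5 of the 35. Over all genes tested, 89 of the 11490 above the limit in the OSK clones were 2-fold lower in both. Mme was at 10.48 in OSK wt and 9.83 and 9.89 in ko (limma adjusted p = 0.185).

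Of the 35 genes, 7 (20%) were higher than OSK wt in both ko clones, against 42.7% of all genes, among them Zbtb32 at 8.04 in wt and 8.24 and 8.23 in ko. Dpp4, a cell-surface peptidase, showed the largest such difference and was the 1 gene of the 7 that passed in the OSK clones. It was at 7.35 in the partial clone with control siRNA, 5.87 with A and the limit with B (limma adjusted p = 0.0926). Another probe set of Dpp4, near the limit, did not fall: it was at 5.98, 6.10 and 5.93. In the OSK clones Dpp4 rose on the probe set used, from 8.09 in wt to 10.36 and 10.31 in ko (2.24 ± 0.24, SE; limma, adjusted p = 0.0263). The difference between the 2 effects was -3.84 ± 0.34 with an adjusted p of 0.0845. Tested over 12911 genes, 0 (0.0%) differed between knockdown and knockout at a limma adjusted p under 0.05, and 1535 had an unadjusted p under 0.05. In a fit on all 18 arrays, 52 passed in place of 0.

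**Figure D5:**
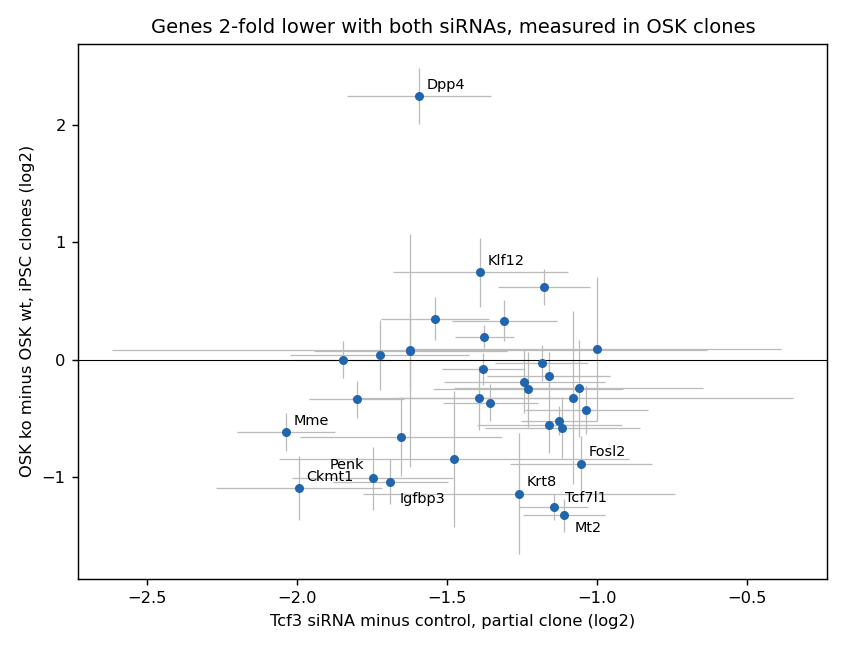
Log2 difference between Tcf3 siRNA and control in the partial clone (horizontal axis) and between Tcf3 ko and wt in the OSK iPSC clones (vertical axis) for the genes 2-fold lower with both siRNAs that were above the lower limit in the OSK clones, with bars of 1 SE from limma. Most points lie below the horizontal line at 0; Dpp4 is at 2.24.

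In the OCK cultures the median ko minus wt difference over the 61 genes, averaged over the 5 days, was -0.0045, against 0.014 over all genes tested. On average 31 of the 61 were lower in ko and 21 higher, and over all genes 4880 were lower and 7015 higher. Of the 61, only Tcf7l1 was lower in ko on all 5 days, and over all 12188 genes tested 142 were. The cultures expressed many of the 61 more highly than the OSK wt clone: the wt culture mean was at least 2-fold above it for 31 genes (50.8%), against 15.2% of all genes. Kitl ran from 10.67 to 12.04 in wt cultures and was at 7.37 in the OSK wt clone. Igfbp3 ran from 11.97 to 12.83 and was at 8.37. Alcam and Runx1t1 were at or close to the limit in every iPSC clone and above it in the wt cultures.

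Some of the 61 were seen in the partial clone alone. Of these, 9 (14.8%) were above the limit on none of the other 15 arrays, against 1.24% of all genes tested. They were Marchf1, Cstdc1, Cst12, 9530059O14Rik, Klk1b16, Csn1s1, Gsdmc2, Clec2i and 1810008I18Rik. Cstdc1 and Csn1s1 were at the limit with both siRNAs too, so their signal came from the control array alone. The 61 were picked for a high control array and the other genes tested were not, so the share is not read as a trait of the clone. Csn1s1 encodes a milk casein and Clec2i a lectin-type receptor ligand; Clec2i was at 9.35 in the control, 7.998 with A and 8.27 with B.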

How the data were processed

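Per the labels, biotin-labelled RNA was hybridised to Affymetrix mouse arrays. The deposited values are log2 signals made with RMA, per the submitters' processing notes; no source used here gives its version or settings. The lowest value in every column was 5.64, the log2 of 50, so the authors' table has a floor there; 44.9% to 46.6% of probe sets per array were at it.

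Of 40508 probe sets, 31076 had 1 gene symbol, 636 several and 8796 none listed. Each gene was represented by its brightest probe set on average (17903 genes). Chromosomes came from a RefSeq table (GRCm38.p6, 30878 probe sets matched).

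limma 3.58.1 in R 4.3.3 was fitted to 8 arrays, with a mean for each of the control, Tcf3 siRNA, OSK wt, OSK ko and OCK ko groups, leaving 3 residual degrees of freedom. The prior variance was estimated without genes that had any array at the floor, and those genes received at least that variance. Genes at the floor on all arrays compared were not tested. Benjamini-Hochberg adjustment ran over all genes tested, sex chromosomes included, at a threshold of 0.05. The procedure was tested on simulated data. The number of arrays limits the precision.

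Named were the called genes (12 largest falls and Tcf7l1, a Tcf/Lef factor), the 8 largest shared rises and, from each of 29 gene lists, members with the largest differences. Members named for their known role (such as Axin2, Klf4 and Cdkn1a) or among the 61 were chosen after their values were seen. The members and lists were chosen with earlier results of these data known.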

Additional observations from a re-analysis of the deposited data

How the results depend on the processing

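The count of called genes moved with the choice of arrays and variance model. It was 13 as reported, 291 with a limma prior taken from every gene, 396 in a fit of the 3 partial-clone arrays alone and 72 in a fit of all 18 arrays. Rises were 0 of the 13, 71 of the 291, 32 of the 396 and 8 of the 72. The count of called genes was 8 with probe sets averaged, 7 with median centring, and 0 both with floored genes left out and with no filter. It was 10 with quantile normalization, all 10 among the 13. Leaving out 1 siRNA array gave 0 to 1. In fits chosen after seeing the data it was 477 without the OCK ko clones, 64 of them rises, and 0 without the OSK clones. Genes that differed between knockdown and knockout numbered 317 with the prior from every gene, 52 with all 18 arrays and 585 without the OCK ko clones, and 0 under the other settings; the fit of the 3 arrays alone holds no OSK clone and gave no value. Tcf7l1 kept its direction throughout. Its call was lost with quantile normalization (-1.08, adjusted p = 0.0583), median centring (-1.08, adjusted p = 0.0760), genes above the floor only (-1.15, adjusted p = 0.138), no filter (-1.15, adjusted p = 0.0702) and without the OSK clones (-1.15, adjusted p = 0.274); it was also lost when either siRNA array was left out, at -1.16 to -1.13 (adjusted p = 0.230 and 0.294). Genes changed 2-fold with both siRNAs numbered 62 as reported, 366 at 1.5-fold, 9 at 3-fold and 40 with probe sets averaged. Over all genes the split of lower and higher on both arrays was 4864 to 4446 as reported, 3691 to 6156 with median centring and 4029 to 5399 with quantile normalization. The list medians that changed sign under a scaling were those of Hox genes, under both, and of amino acid stress genes, under both, and glycolysis genes, under median centring. None of the 21 genes tracked across settings reversed. The 21 were picked for large differences in these arrays, and several settings changed only the variance model or the filter. The lack of reversals therefore says little about stability. No paired analysis was possible because there was 1 control array and the groups compared share fewer than 2 replicate numbers. Causes of these differences were not tested.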

Other observations

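Interferon-induced genes, which can respond to transfected RNA, were lower than the control on both siRNA arrays for 12 of 19 tested and higher for 2, with a median of -0.30. Ifit2 was at 6.41 in the control and at or within 0.01 of the lower limit with both siRNAs, and Eif2ak2 was at 8.45, 7.43 and 8.19. Imprinted genes were lower on both arrays for 11 of 14 and higher for 1, with a median of -0.25. Mest was at 9.84 in the control, 9.41 with A and 9.32 with B (limma adjusted p = 0.169). None of the members of either list passed the test, and over all genes 39.9% were lower on both arrays.

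Other lists were split or small. Of 15 amino acid stress genes 7 were lower and 6 higher on both arrays, with Nupr1 at 10.75, 10.09 and 10.04. Of 13 cholesterol synthesis genes 3 were lower and 5 higher, with Insig1, a brake on that pathway, at 9.62, 8.69 and 9.30. Glycolysis genes were 5 lower and 3 higher of 10, DNA methylation and Polycomb genes 8 and 6 of 17, Hox genes 6 and 6 of 17, neural and epiblast genes 4 and 1 of 9, and RNA interference genes 3 and 2 of 9. Germline genes were 2 lower and 0 higher of 4, adipocyte genes 0 and 1 of 3, macrophage and blood genes 1 and 2 of 7, and endothelial genes 1 and 4 of 6. 0 members of these lists passed the test.

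The 2 siRNA arrays differed from each other by at least 2-fold for 8 autosomal genes, 2 of them higher with A (Hbb-y, which was lower than control with both, and Tmem178) and 6 higher with B. Rab12, a small GTPase, was at 9.39 in the control, 8.34 with A and 9.55 with B. Mmp3, a matrix metalloproteinase, was at 7.41, 6.93 and 8.16, and Tph1, which starts serotonin synthesis, was at 6.95, 6.52 and 7.78. Gm13306, Slc25a27 and Rtkn2 were also higher with B, by 1.36, 1.21 and 1.07 on the log2 scale, and Tmem178 was at 6.11, 6.97 and 5.90. With 1 array for each siRNA these differences have no test.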
